A study of Sorghum bicolor with 12 samples.

Results

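The effect of drought stress averaged over 2 sorghum (Sorghum bicolor) genotypes was measured by comparing all 6 drought stressed (DS) libraries with all 6 well-watered (WW) libraries, with genotype as a block. The comparison thus used 12 of the 12 libraries of the series. Its members are the transcripts with a mean of at least 1 RPKM (reads scaled to transcript length and to the reads of the library) in any of the 4 groups, which were 19313 of 27989. Reads per library could be solved for 19309 of them, and these were tested.

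The 4 groups were WW and DS plants of IS20351 and of IS22330, which the study describes as the drought sensitive and the drought tolerant genotype, with 3 biological replicates each. Plants were harvested at 42 days. DS plants had been held for 9 days at a fraction of transpirable soil water (FTSW) of 0.2, and WW plants were kept close to an FTSW of 0.7. Total RNA came from what the protocol calls leaf meristem and the tissue label calls leaf, and all plants were potted and grown in the same soil mixture. Only 1 accession stands for each drought response type, so what is shared here is shared by these 2 accessions.

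Water deficit closes stomata and lowers the supply of carbon dioxide to the leaf, so that light absorbed by the antenna proteins can exceed what the Calvin cycle uses. Surplus excitation favours reactive oxygen species, which ascorbate peroxidases, peroxiredoxins and glutaredoxins help to remove. Leaves under drought are also known for changed starch and sucrose turnover, membrane lipid remodelling, cuticular wax and phenolic metabolism, and the transcripts below are ordered by these roles.

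The letters a, b and c order the libraries of each group by read total, and equal letters pair nothing. Each held 26398759 to 28680141 reads on transcripts, and 22839 to 24232 transcripts had reads. After each genotype was centred on its own mean, the first component of the log2(RPKM + 0.1) values held 45.6% of the variance. On it, 5 DS libraries lay between 35.6 and 101.0, and the 6 WW libraries lay between -93.1 and 12.4. The library labelled IS22330_DS c lay at -74.2, among the WW libraries and opposite to its label. Its log2 values correlated across transcripts at r = 0.856 with the mean of the other IS22330_DS libraries and at r = 0.945 with that of the IS22330_WW libraries. The library labelled IS22330_WW b, at 12.4, lay nearest to the DS side of all WW libraries, and its r was 0.918 with its own group and 0.953 with the IS22330_DS mean. That mean includes IS22330_DS c. An own-group mean leaves out the library itself and so holds fewer libraries than the mean of the other treatment. The values of r are thus not like for like. Because IS22330_DS c lay among the WW libraries on the first component, results for called transcripts, lists and counts are given with and without it. The reason for its position was not tested.

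**Figure D1:**
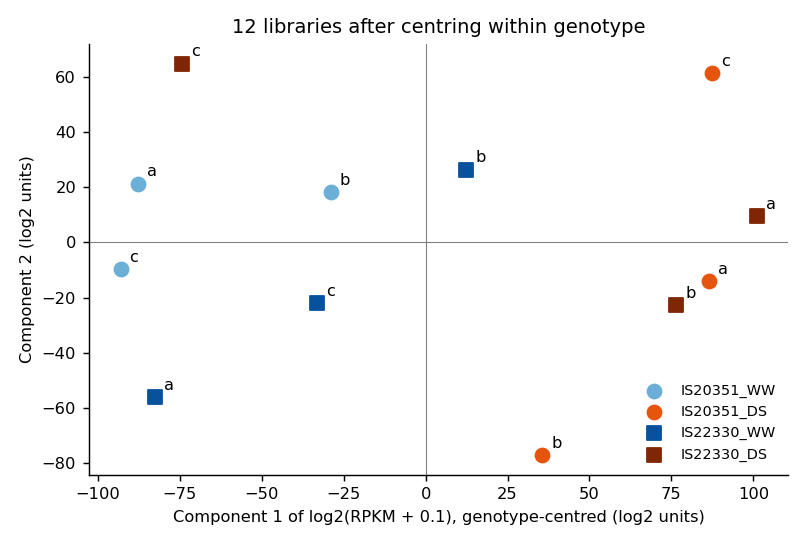
Components 1 and 2 of log2(RPKM + 0.1) after centring within genotype, in log2 units, for the 12 libraries (circles IS20351, squares IS22330; letters name libraries). The DS libraries lie to the right and the WW libraries to the left or near 0, except IS22330_DS c at -74.2 on component 1.

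Averaged over both genotypes, 758 transcripts rose under drought and 857 fell. A transcript is called here when its edgeR adjusted p does not exceed 0.05. Of the 19309 tested, 3.93% were thus called higher, 4.44% lower and 8.36% in either direction. Rises had a median log2 ratio (DS over WW) of 0.91 and falls of -1.09. Changes reached 1 log2 unit in 326 of the rises and 507 of the falls, and 2 log2 units in 108 and 66. In bulk tissue, fewer cells of a type and less RNA per cell cannot be told apart.

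The smallest adjusted p was 0.0186. At the study's pairwise thresholds (adjusted p up to 0.001 together with a change of 2 or more log2 units) edgeR thus called 0 transcripts, or 0.0%, while 5768 had an unadjusted p under 0.05. DESeq2 called 123 at those thresholds, and limma called 0 with either pseudocount. Without IS22330_DS c, edgeR called 167, or 0.865%.

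Without IS22330_DS c, the calls at an adjusted p up to 0.05 rose to 2534 higher and 3005 lower, which are 13.1% and 15.6% of those tested and 28.7% together. All of the 1615 calls from 12 libraries were called in the same direction in that fit, and 3924 transcripts were called in it alone. The library was left out because it lay among the WW libraries, which by itself favours more calls and the keeping of calls. The fit is thus no independent support for them. The other libraries moved the count less, or lowered it. Without IS20351_WW c there was 1 call, and without IS22330_DS a or IS22330_DS b there were 0, with 4422 and 4828 transcripts at an unadjusted p under 0.05. Counts were 252 without IS20351_WW a, 833 without IS20351_WW b, 159 without IS20351_DS a, 514 without IS20351_DS c, 471 without IS22330_WW a and 750 without IS22330_WW c. They were 1441 without IS20351_DS b and 2125 without IS22330_WW b.

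**Figure D2:**
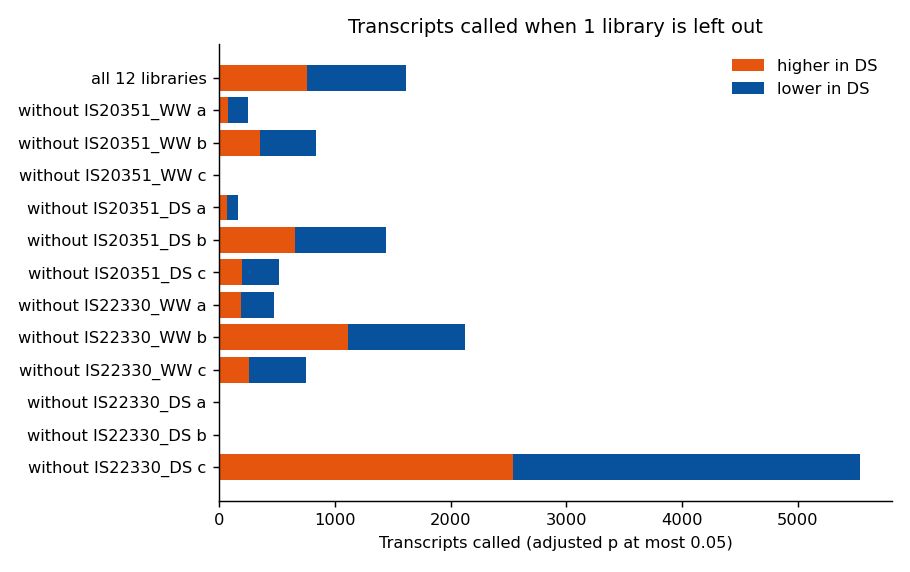
Transcripts called by edgeR (adjusted p up to 0.05), higher (orange) and lower (blue) in DS plants, with all 12 libraries and with 1 library left out. The bar without IS22330_DS c reaches 5539, against 1615 with all libraries, and those without IS22330_DS a or b are at 0.

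Read library by library, 190 transcripts (0.984%) had all 6 DS libraries above all 6 WW libraries, and 467 (2.42%) had all 6 below. Of these, 137 and 426 were called. In the 5 DS libraries left without IS22330_DS c the numbers were 1618 above and 1222 below. Leaving out a library that lay among the WW libraries makes such separation easier. Separation within each genotype on the same side, a weaker condition, held for 378 transcripts above and 708 below.

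The share called was higher among abundant transcripts. It was 3.82% of 1546 transcripts under a mean of 1 RPKM over the 12 libraries, 3.58% of 5585 between 1 and 5, 8.36% of 6088 between 5 and 20, and 16.5% of 1439 at 100 or more. Of the members, 830 passed the RPKM minimum in DS groups only and 853 in WW groups only. Of these, 58 and 54 were called, both a smaller share than the 8.36% of all transcripts tested. Such transcripts had to differ between the group means to pass, so that their calls carry little weight, while 1436 calls fell on the 15487 transcripts that passed in all 4 groups.

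The size of the effect was also taken directly from the deposited means, as the mean of the 2 log2 RPKM ratios. It could be formed for 18819 transcripts, and the other 494 had no reads in at least 1 group. Its median was 0.05, and its 5th and 95th percentiles were -1.29 and 1.26. A mean of at least 2 in size was reached by 369 transcripts on the high side and 240 on the low side, and 160 of these 609 were called. Across transcripts, the fitted ratio and this mean correlated at r = 0.997.

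The 2 genotypes that make up the average use separate libraries, so their ratios can be set side by side. Across the 19309 transcripts the log2 ratios of IS20351 and IS22330 correlated at Pearson's r = 0.427 and Spearman's rho = 0.487, and at 0.590 and 0.649 without IS22330_DS c. These are across genes, which are not independent replicates. In a fit of the 4 groups, edgeR called 699 transcripts in IS20351 (245 higher, 454 lower) and 0 in IS22330, where 2159 had an unadjusted p under 0.05. Without IS22330_DS c it called 2910 in IS20351 and 788 in IS22330.

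The test of the difference between the genotypes called 0 transcripts in edgeR with all libraries (1185 at an unadjusted p under 0.05, smallest adjusted p = 0.414) and 0 without IS22330_DS c (961, smallest adjusted p = 0.0750). No other tool was run for it. Of the 758 transcripts called higher on average, 757 had a ratio above 0 in both genotypes, and of the 857 called lower, 855 had one below 0 in both. The average itself favours such transcripts, so these counts describe the calls and test nothing. The ratio was the larger one in IS20351 for 1265 of the 1615 calls, and for 1045 without IS22330_DS c. The median size in IS22330 was 0.83 with that library and 1.06 without it, beside 1.16 in IS20351.

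**Figure D3:**
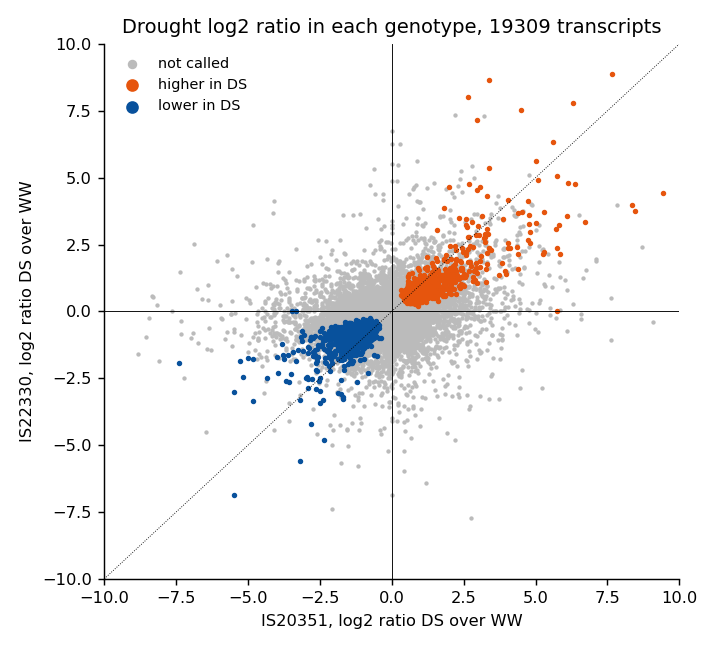
Log2 ratio of DS over WW in IS20351 (horizontal) and IS22330 (vertical) for each of 19309 transcripts, with those called on average in orange (higher) and blue (lower); the dotted line marks equal ratios. The called transcripts lie to the upper right and lower left of 0, apart from a few at or near 0 in IS22330.

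The study's annotation table names 174 transcripts in 6 pathways, and 153 were tested. The study chose them on these same samples, so their counts are no independent evidence of a response. In total 17 rose and 5 fell, 14.4% of those tested beside 8.36% of all transcripts. Their median log2 ratio was -1.24, beside 0.01 over all transcripts tested. Ratios below 0 were found for 96 of the 153, beside 9494 of all 19309. Groups within a pathway are small, so that 1 call moves their share widely. Without IS22330_DS c, 36 were called higher and 70 lower (69.3%, beside 28.7% of all transcripts in that fit), and the median was -1.65. In 1 group alone, 32 of the 153 passed the RPKM minimum.

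Each of the 22 called transcripts kept its direction in every alternative fit that tested it. Each was also called without IS22330_DS c, a fit that favours the keeping of calls. Stricter filters on levels removed 4 of them (phospholipase D alpha 1, ACX2, the ceramidase and the starch branching enzyme) from at least 1 fit. DESeq2 called 21 of the 22, limma 15 or 17, and edgeR without the genotype block 16. Each of the 22 kept its call in 2 to 9 of the 12 fits that left out 1 library. None was called without IS20351_WW c, IS22330_DS a or IS22330_DS b, where their adjusted p ran from 0.0522 to 0.124. For the drought difference between genotypes, the smallest adjusted p among the 153 was 0.414.

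**Figure D4:**
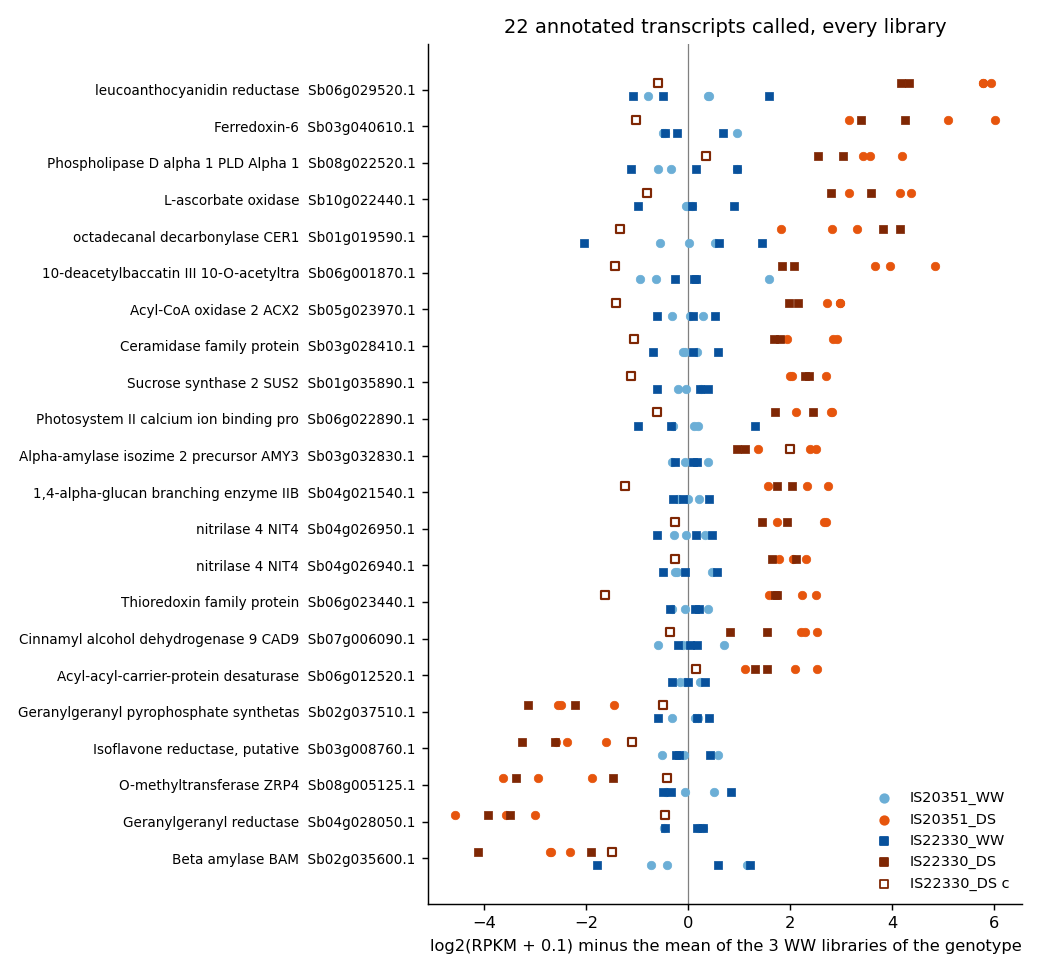
Log2(RPKM + 0.1) of the 22 called annotated transcripts in every library, minus the mean of the 3 WW libraries of the same genotype (circles IS20351, squares IS22330; the open square is IS22330_DS c). For the transcripts that rose the open square lies among or below the WW points, except for the alpha-amylase AMY3, and for those that fell it lies near the WW points, below all of them for the isoflavone reductase.

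Among the antioxidant transcripts, 1 of 18 rose and 0 fell (5.56%, beside 8.36% of all transcripts), while 12 had a log2 ratio below 0 and the median was -1.58. At an unadjusted p under 0.05 there were 12, and DESeq2 called 10 and limma 6 or 7. Without IS22330_DS c, 5 were called higher and 12 lower (94.4%, beside 28.7%). The transcript that rose was Sb06g023440.1, annotated as a thioredoxin family protein, one of the small proteins that reduce disulfide bonds. Its RPKM was 8.61, 14.1 and 10.3 in IS20351_WW and 61.7, 50.6 and 32.4 in IS20351_DS. In IS22330_WW it was 20.7, 28.9 and 30.8 and in IS22330_DS 85.6, 88.5 and 8.48. The 5 DS libraries other than IS22330_DS c lay above all WW libraries, and IS22330_DS c lay below them all. The log2 ratio was 1.57 ± 0.43 (SE; edgeR adjusted p = 0.0431), and it was 1.84 without IS22330_DS c. Leaving out 1 library kept the call in 2 of 12 fits and ended it, among others, without IS20351_WW c (adjusted p over the 12 fits 0.000217 to 0.111).

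Of the ascorbate cycle, which uses vitamin C to reduce hydrogen peroxide, none of the listed antioxidant transcripts was called with all libraries. For the ascorbate peroxidase Sb06g001970.1, RPKM was 1.97, 2.42 and 2.30 in IS20351_WW and 24.1, 61.7 and 6.54 in IS20351_DS. It was 1.86, 6.21 and 1.65 in IS22330_WW and 13.2, 3.58 and 0.925 in IS22330_DS, so that the groups overlapped. The log2 ratio came to 2.22 ± 0.81 (SE; edgeR adjusted p = 0.0979). It was called without IS22330_DS c, at 2.65, without IS22330_WW b, at 2.78, in DESeq2 and in IS20351 alone. The ascorbate peroxidase Sb06g027520.1, picked after its values were seen as the abundant one, shares its gene with another listed transcript, and how reads were split between them is not given in the sources used here. It had 64.5 to 219 RPKM in the 6 WW libraries and 5.52 to 13.7 in 5 DS libraries, with 106 in IS22330_DS c. Its log2 ratio was -2.39 (adjusted p = 0.113) and without IS22330_DS c it was called, at -3.90. For dehydroascorbate reductase Sb09g001690.1, which regenerates ascorbate, WW libraries ran from 0.364 to 3.90 RPKM and DS libraries from 0.732 to 9.59 (log2 ratio 1.59 ± 0.64 SE, edgeR adjusted p = 0.1245), and it was not called without IS22330_DS c either.

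A wide spread between DS libraries was that of Sb09g025730.2, annotated as an oxygen binding or transporter protein. It had 46.3, 38.7 and 40.6 RPKM in IS20351_WW and 0.384, 0.792 and 0 in IS20351_DS. It had 79.8, 49.7 and 55.4 in IS22330_WW and 0, 0.645 and 898 in IS22330_DS. In 5 DS libraries it lay far below every WW library, and in IS22330_DS c it lay far above them. From all 12 libraries its estimate was a log2 ratio of -1.79 with an SE of 3.79 (edgeR adjusted p = 0.777), and without IS22330_DS c it was called, at -7.20.

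Of 56 tested transcripts of secondary metabolism, 7 rose and 4 fell (19.6%, beside 8.36% of all transcripts), with a median log2 ratio of -0.84. This median was below 0 in every alternative except the IS20351 libraries alone, where it was 0.51, and its lowest value was -1.37. In the IS22330 libraries alone it was -0.68. None of the 11 was called without IS20351_WW c, IS22330_DS a or IS22330_DS b (adjusted p = 0.0522 to 0.106), and the others of the 12 fits that left out 1 library called different numbers of them. Without IS22330_DS c, 11 were called higher and 20 lower (55.4%, beside 28.7%).

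The plastid branch of the isoprenoid group makes carotenoids and the phytol tail of chlorophyll. Of 15 tested transcripts of the group, 14 had a log2 ratio below 0, beside 9494 of all 19309. In total 2 fell (13.3%, beside 8.36% of all transcripts called in either direction). Geranylgeranyl reductase Sb04g028050.1, which supplies that phytol tail, had 437, 254 and 405 RPKM in IS20351_WW and 29.8, 44.2 and 14.9 in IS20351_DS. In IS22330 it had 262, 168 and 285 in WW and 15.2, 20.4 and 169 in DS libraries. Only IS22330_DS c reached the WW range. The fall was 6.47-fold (log2 ratio -2.69 ± 0.70 SE, edgeR adjusted p = 0.0380). Only 2 of the fits that left out 1 library kept the call, and DESeq2 gave the transcript no adjusted p.

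GGPS1 (Sb02g037510.1), the synthase of the geranylgeranyl pyrophosphate from which both products are made, had 38.5 to 76.4 RPKM over the 6 WW libraries, with a median of 69.3. In DS libraries it had 6.40 to 40.7, with a median of 12.1, and again only IS22330_DS c overlapped. The log2 ratio was -1.84 ± 0.44 (SE; edgeR adjusted p = 0.0309). Without IS22330_DS c, these 2 ratios were -3.79 and -2.46. In that fit 10 transcripts of the isoprenoid group were called lower and 0 higher (66.7%, beside 28.7% of all transcripts). One of the 10 was the lycopene epsilon cyclase Sb03g026020.1 of the lutein branch, named after its values were seen, at -1.84 on the log2 scale with all libraries (adjusted p = 0.0552) and -2.67 without that one.

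Among the flavonoid enzymes and cinnamoyl-CoA reductases, 1 rose and 1 fell of 9 tested (22.2%, beside 8.36% of all transcripts). Their median log2 ratio of -0.21 lay between medians of opposite sign, 1.90 in IS20351 and -1.94 in IS22330 (-1.996 without IS22330_DS c). The study reports the flavonoid pathway as raised by drought in IS20351 and lowered in IS22330. The edgeR test of the difference between the genotypes called 0 of the 9 (smallest adjusted p = 0.797). Of the 9, 4 passed the RPKM minimum in 1 group alone. The leucoanthocyanidin reductase Sb06g029520.1, which in other plants makes catechins for proanthocyanidins, showed the highest ratio of all called annotated transcripts. It had 0.321, 0.859 and 0.849 RPKM in IS20351_WW and 39.6, 44.3 and 40.1 in IS20351_DS. In IS22330_WW it had 0.486, 3.60 and 0.783 and in IS22330_DS 25.0, 22.2 and 0.725. All DS libraries but IS22330_DS c were thus above all WW libraries. The rise was 22.2-fold (log2 ratio 4.47 ± 0.88 SE, edgeR adjusted p = 0.0201). The ratio was 4.90 without IS22330_DS c and 5.29 without IS22330_WW b, the highest WW library.

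The putative isoflavone reductase Sb03g008760.1 fell. Of the 153 annotated transcripts tested it was the 1 whose 6 DS libraries all lay below the 6 WW libraries, beside 2.42% of all transcripts. It had 92.5, 200 and 126 RPKM in IS20351_WW and 21.9, 25.3 and 43.1 in IS20351_DS. In IS22330 it had 126, 121 and 194 in WW and 14.9, 23.4 and 66.9 in DS libraries, so that IS22330_DS c was the highest DS library. The fall was 4.31-fold (log2 ratio -2.11 ± 0.41 SE, edgeR adjusted p = 0.0198), and without IS22330_DS c the ratio was -2.60.

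In the phenylpropanoid and transferase group, 2 rose and 1 fell of 17 tested (17.6%, beside 8.36% of all transcripts). Sb06g001870.1, annotated after the 10-deacetylbaccatin acetyltransferase of taxol synthesis in yew, ran from 2.76 to 20.5 RPKM in WW libraries and from 65.7 to 159 in 5 DS libraries, with 6.72 in IS22330_DS c. This gave a log2 ratio of 2.55 ± 0.71 (SE; edgeR adjusted p = 0.0460), or 2.95 without that library. CAD9 (Sb07g006090.1), a cinnamyl alcohol dehydrogenase of the family that makes lignin alcohols, was named after its values were seen and ran from 3.77 to 11.3 RPKM in WW and 17.8 to 33.6 in the same 5 DS libraries, with 7.90 in IS22330_DS c (log2 ratio 1.49, adjusted p = 0.0271, or 1.72 without it). The O-methyltransferase Sb08g005125.1, named after the maize root protein ZRP4, fell, with 8.20 to 20.9 RPKM in WW and 1.03 to 8.75 in DS libraries (log2 ratio -2.11 ± 0.56 SE, edgeR adjusted p = 0.0398, or -2.68 without IS22330_DS c).

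Nitrilase 4, which in Arabidopsis hydrolyses the beta-cyanoalanine left by cyanide detoxification, rose from 2 neighbouring gene identifiers. Sb04g026940.1 had 18.9, 30.3 and 18.4 RPKM in IS20351_WW and 91.8, 75.2 and 108 in IS20351_DS. It had 11.4, 24.0 and 15.6 in IS22330_WW and 70.6, 50.9 and 13.5 in IS22330_DS. The estimate was a log2 ratio of 1.66 ± 0.34 (SE; edgeR adjusted p = 0.0218), or 1.87 without IS22330_DS c, and only that library overlapped with WW libraries. Sb04g026950.1, named after its values were seen, ran from 83.0 to 188 RPKM in WW and from 338 to 661 in 5 DS libraries, with 114 in IS22330_DS c (log2 ratio 1.78, adjusted p = 0.0238, or 2.01 without it). Both carry the same annotation, and since unique matches alone were counted, reads shared by similar copies would have been left out.

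In the wax group, 1 of 4 rose, beside 8.36% of all transcripts called in either direction. CER1 (Sb01g019590.1), named after the Arabidopsis protein that makes wax alkanes, had 44.2, 62.8 and 29.7 RPKM in IS20351_WW and 308, 155 and 433 in IS20351_DS. It had 5.79, 65.7 and 36.7 in IS22330_WW and 430, 344 and 9.42 in IS22330_DS. The 5 other DS libraries lay above all WW libraries while IS22330_DS c lay among them. The log2 ratio was 2.72 ± 0.74 (SE; edgeR adjusted p = 0.0439), or 2.97 without IS22330_DS c, and limma called no transcript of this group with either pseudocount.

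Among the laccases and copper oxidases, 1 of 6 rose, beside 8.36% of all transcripts called in either direction. The L-ascorbate oxidase Sb10g022440.1, of a family that oxidises ascorbate outside the cell, had 0.477 to 2.03 RPKM in the 6 WW libraries and 6.35 to 14.9 in 5 DS libraries, with 0.550 in IS22330_DS c. The rise was 9.73-fold (log2 ratio 3.28 ± 0.64 SE, edgeR adjusted p = 0.0201), and without IS22330_DS c the ratio was 3.61.

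For the light reactions, 2 of 19 transcripts rose and 0 fell (10.5%, beside 8.36% of all transcripts). The median log2 ratio was -1.52 and 15 were below 0. At an unadjusted p under 0.05 there were 15, DESeq2 called 9, and limma called 13 or 12. Without IS22330_DS c, 14 were called lower and 4 higher (94.7%, beside 28.7%), and the median was -2.21. Their summed RPKM ran from 5036 to 12887 over the WW libraries. In 5 DS libraries it ran from 1814 to 2154, below all WW libraries, and in IS22330_DS c it was 10803.

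**Figure D5:**
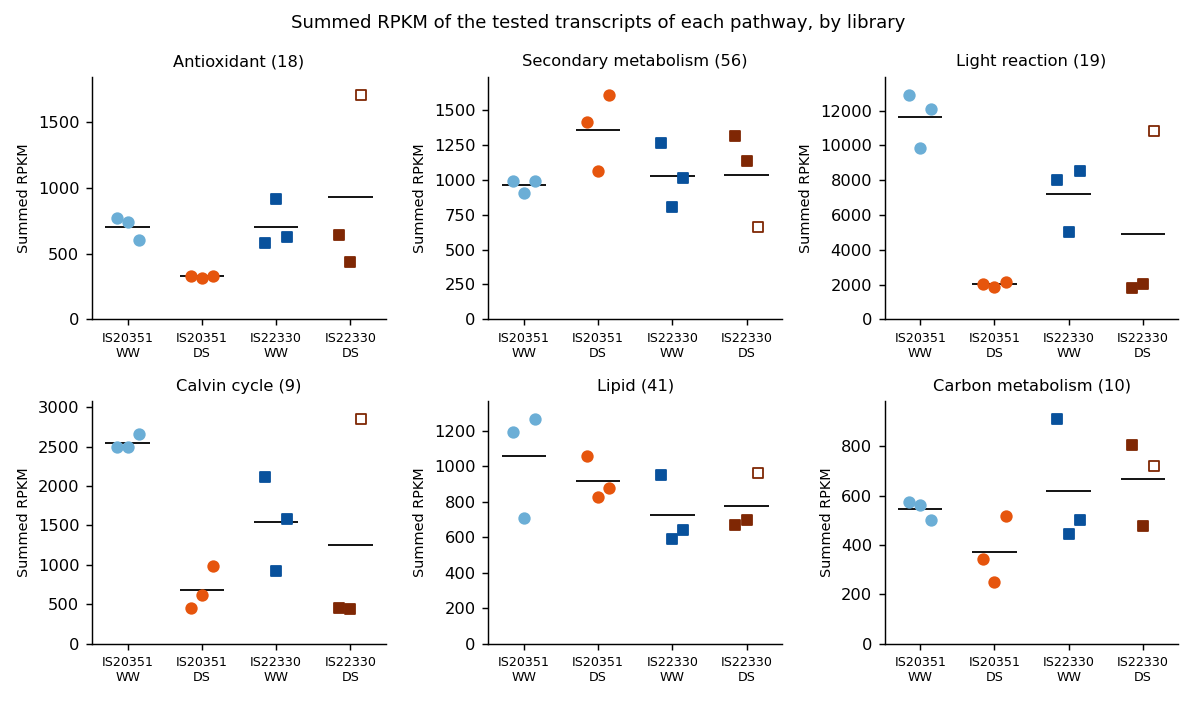
Summed RPKM of the tested transcripts of each pathway (number in the title) in the 3 libraries of each group, with the group mean as a line; the open square is IS22330_DS c. For the light reactions the 5 other DS libraries sit between 1814 and 2154, below the WW libraries, and IS22330_DS c at 10803.

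All 8 antenna transcripts, which code for chlorophyll-binding proteins that gather light for the photosystems, had log2 ratios between -1.94 and -1.28, with 0 called by edgeR. Of these, 5 had an unadjusted p under 0.05, DESeq2 called 3, and limma 5 or 4. All 8 were called lower without IS22330_DS c, at a median of -2.77, beside 15.6% of all transcripts called lower in that fit. These 8 transcripts come from 7 genes and are on the list that the study chose on these samples. The abundant ones are given here, chosen after their values were seen. LHCB5 (Sb05g007070.1) had 2065, 2448 and 2040.5 RPKM in IS20351_WW and 252, 217 and 377 in IS20351_DS. It had 1542, 729 and 1473 in IS22330_WW and 184, 272 and 2145 in IS22330_DS. With IS22330_DS c its log2 ratio was -1.68 (adjusted p = 0.157), without it -2.80. LHCB6 (Sb06g032690.1), at 714 to 3005 RPKM in WW libraries, had 246 to 306 in the same 5 DS libraries and 2305 in IS22330_DS c.

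Among the subunits of the photosystems, 1 of 8 rose, beside 8.36% of all transcripts called in either direction. Sb06g022890.1, annotated as a calcium ion binding protein of photosystem II, had 4.48, 5.93 and 6.29 RPKM in IS20351_WW and 38.8, 24.1 and 39.4 in IS20351_DS. It had 29.2, 9.17 and 5.86 in IS22330_WW and 64.2, 38.3 and 7.57 in IS22330_DS, so that the groups overlapped through IS22330_WW a and IS22330_DS c. The log2 ratio was 1.91 ± 0.52 (SE; edgeR adjusted p = 0.0430), or 2.19 without IS22330_DS c. The other 7 subunits included 5 with a ratio below 0, and these were called lower without IS22330_DS c.

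Ferredoxin-6 (Sb03g040610.1), an iron-sulphur electron carrier, rose most in this pathway. It had 0.364, 1.13 and 0.350 RPKM in IS20351_WW and 21.8, 41.4 and 5.60 in IS20351_DS. It had 0.587, 1.42 and 0.710 in IS22330_WW and 17.9, 9.80 and 0.365 in IS22330_DS. Outside IS22330_DS c no DS library overlapped with WW. The rise was 17.8-fold (log2 ratio 4.15 ± 0.82 SE, edgeR adjusted p = 0.0203), and without IS22330_DS c the ratio was 4.50. The transcript passed the RPKM minimum only through the DS groups, where it is high, so that it had to differ between group means. Neither rise of the pathway was called without IS20351_WW c, IS22330_DS a or IS22330_DS b (adjusted p = 0.0531 to 0.124).

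None of the 9 transcripts listed under the Calvin cycle was called by edgeR, while 6 had an unadjusted p under 0.05 and DESeq2 called 3, as did limma with either pseudocount. Their median log2 ratio was -1.37. Without IS22330_DS c, 3 were called higher and 5 lower (88.9%, beside 28.7% of all transcripts). The Rubisco small chain Sb05g003480.1, part of the carbon-fixing enzyme, was the most abundant, as seen from its values. It had 642 to 1804 RPKM in WW libraries, 171 to 623 in 5 DS libraries, below them all, and 1450.3 in IS22330_DS c. Its log2 ratio was -1.39 (adjusted p = 0.168), and -2.37 without that library. Meristem, vascular and root markers were not checked, because the identifiers are not paired with names outside the annotation table.

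The transcripts closest to a call were a glyceraldehyde-3-phosphate dehydrogenase and CP12-2, a small protein that in other plants binds this dehydrogenase and keeps it inactive. The former, Sb06g018880.3, had 21.3 to 219 RPKM in WW and 6.98 to 37.2 in DS libraries (log2 ratio -1.93 ± 0.62 SE, edgeR adjusted p = 0.0695), and was called, at -2.48, without IS22330_DS c. CP12-2 (Sb01g037510.1) had 9.82, 31.3 and 10.1 RPKM in IS20351_WW and 179, 121 and 162 in IS20351_DS. It had 19.5, 90.4 and 42.1 in IS22330_WW and 181, 146 and 7.71 in IS22330_DS, the last below every WW library. Its log2 ratio was 2.08 ± 0.71 (SE; adjusted p = 0.0806), and it was called, at 2.46, without IS22330_DS c.

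A putative transketolase and a Rubisco activator were likewise at their lowest DS value in IS22330_DS c. Transketolase Sb06g004280.1, of the sugar-shuffling part of the cycle, had 0.331 to 4.56 RPKM in WW and 9.32 to 20.8 in 5 DS libraries, with 0.0300 in IS22330_DS c (log2 ratio 2.12 ± 0.87 SE, adjusted p = 0.132). The Rubisco activator Sb05g027880.1 ran from 0 to 13.9 RPKM in WW and from 0.0413 to 96.9 in DS libraries, with overlap also outside IS22330_DS c (log2 ratio 3.77 ± 1.72 SE, adjusted p = 0.166). Without IS22330_DS c both were called, at 2.45 and 4.38.

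In lipid metabolism, 4 of 41 tested transcripts rose and 0 fell (9.76%, beside 8.36% of all transcripts), at a median log2 ratio of -1.15, and 24 were below 0. At an unadjusted p under 0.05 there were 17, DESeq2 called 13, and limma 8 or 10. Without IS22330_DS c, 9 were called higher and 16 lower (61.0%, beside 28.7%). The 4 were not called without IS20351_WW c, IS22330_DS a or IS22330_DS b (adjusted p = 0.0524 to 0.0923).

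Phospholipase D alpha 1 (Sb08g022520.1), which frees phosphatidic acid from membrane lipids, had 0.0265, 0.270 and 0.0509 RPKM in IS20351_WW and 2.17, 1.97 and 3.42 in IS20351_DS. It had 0.267, 0.542 and 0.0516 in IS22330_WW and 2.60, 1.83 and 0.319 in IS22330_DS. All values were low, and only IS22330_DS c overlapped. The log2 ratio was 3.35 ± 0.76 (SE; edgeR adjusted p = 0.0276), or 3.68 without IS22330_DS c. It too passed the RPKM minimum only through the DS groups.

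The acyl-acyl-carrier-protein desaturase Sb06g012520.1, which places the first double bond in plastid fatty acids, was the abundant one among the 4. It had 108, 99.4 and 131 RPKM in IS20351_WW and 645, 476 and 241 in IS20351_DS. It had 101, 159 and 127 in IS22330_WW and 316, 372 and 141 in IS22330_DS, of which only the last fell in the WW range. The rise was 2.79-fold (log2 ratio 1.48 ± 0.28 SE, edgeR adjusted p = 0.0198), and without IS22330_DS c the ratio was 1.64.

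ACX2 (Sb05g023970.1), an acyl-CoA oxidase that opens peroxisomal beta-oxidation, ran from 0.450 to 1.93 RPKM in WW and from 3.22 to 13.0 in 5 DS libraries, with 0.216 in IS22330_DS c (log2 ratio 2.19 ± 0.52 SE, edgeR adjusted p = 0.0306, or 2.50 without it). The ceramidase Sb03g028410.1, which splits the sphingolipid ceramide, differed between the genotypes already in WW plants. It had 0.283 to 0.366 RPKM in IS20351_WW and 1.49 to 3.04 in IS20351_DS, beside 2.64 to 6.53 in IS22330_WW and 15.3, 13.96 and 2.02 in IS22330_DS. Each genotype thus separated apart from IS22330_DS c, while the pooled groups overlapped. Its log2 ratio was 1.94 ± 0.49 (SE; edgeR adjusted p = 0.0347), or 2.26 without IS22330_DS c, and without the genotype block it was not called.

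Other lipid transcripts that the study discusses were not called with all libraries. The galactolipid synthase MGD2 (Sb07g027910.1) ran from 0 to 18.9 RPKM in WW and from 0 to 1.46 in DS libraries (log2 ratio -2.14, adjusted p = 0.597), with its highest DS value in IS22330_DS c, and was called, at -5.36, without that library. The glycerophosphodiester phosphodiesterase Sb06g014320.1 ran from 2.23 to 12.3 and from 0.636 to 3.07 (adjusted p = 0.144). For PLS1 (Sb08g016610.1), a value of 7.21 RPKM in IS22330_WW b and of 1.54 in IS22330_DS c stood beside values of at most 0.106 elsewhere (adjusted p = 0.603). The last 2 were not called without IS22330_DS c either. These groups overlapped. The flavonol sulfotransferase-like Sb05g026855.1 was under the RPKM minimum and was not tested.

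In carbon metabolism, 3 of 10 tested transcripts rose and 1 fell (4 of 10, beside 8.36% of all transcripts), and the median log2 ratio was 1.48. This was the pathway of the 6 with a median above 0, and it ran from 0.75 to 2.11 in the alternative fits. The list was split, with 6 ratios above 0 and 4 below, between -2.72 and 2.07. With both genotypes pooled, its summed RPKM did not rise, with a median of 533 in WW and 498 in DS libraries (476 without IS22330_DS c). By genotype it was 573, 564 and 502 in IS20351_WW and 343, 252 and 519 in IS20351_DS. It was 908, 443 and 502 in IS22330_WW and 804, 476 and 720 in IS22330_DS. At an unadjusted p under 0.05 there were 5, DESeq2 called 5, and limma 2 or 3. Without IS22330_DS c, 4 were called higher and 3 lower (70.0%, beside 28.7%). The 4 calls were lost without IS20351_WW c, IS22330_DS a or IS22330_DS b (adjusted p = 0.0522 to 0.0940).

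Starch-degrading enzymes moved in both directions. The alpha-amylase AMY3 (Sb03g032830.1), of the enzymes that cut inside starch chains, had 3.26, 2.73 and 4.52 RPKM in IS20351_WW and 8.996, 18.4 and 19.8 in IS20351_DS. It had 2.60, 3.32 and 3.55 in IS22330_WW and 6.89, 6.17 and 12.8 in IS22330_DS. Of the 153 annotated transcripts tested it was the 1 with all 6 DS libraries above all 6 WW libraries, beside 0.984% of all transcripts. IS22330_DS c was the highest of its group. The rise was 3.50-fold (log2 ratio 1.81 ± 0.30 SE, edgeR adjusted p = 0.0187), with a ratio of 1.60 without IS22330_DS c, and it was called in 9 of the 12 fits without 1 library.

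The beta amylase Sb02g035600.1, of the enzymes that release maltose from chain ends, fell. It had 92.6, 25.0 and 31.2 RPKM in IS20351_WW and 8.22, 6.36 and 6.28 in IS20351_DS. It had 112, 13.97 and 72.3 in IS22330_WW and 2.68, 12.8 and 17.1 in IS22330_DS, where the last library exceeded 1 WW library. The fall was 6.60-fold (log2 ratio -2.72 ± 0.56 SE, edgeR adjusted p = 0.0215), and without IS22330_DS c the ratio was -3.05.

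Sucrose synthase 2 (Sb01g035890.1), which splits sucrose into fructose and UDP-glucose, had 14.01, 15.8 and 19.3 RPKM in IS20351_WW and 106, 66.9 and 64.7 in IS20351_DS. It had 26.8, 54.0 and 48.1 in IS22330_WW and 214, 201.5 and 18.9 in IS22330_DS. DS libraries other than IS22330_DS c lay above all WW libraries. The log2 ratio was 1.93 ± 0.44 (SE; edgeR adjusted p = 0.0269), or 2.18 without IS22330_DS c. Neither limma with either pseudocount nor edgeR without the genotype block called this transcript. The starch branching enzyme IIB (Sb04g021540.1), which adds side chains to starch, had 1.11 to 1.87 RPKM in WW and 4.68 to 10.7 in those 5 DS libraries, with 0.525 in IS22330_DS c (log2 ratio 1.80 ± 0.45 SE, edgeR adjusted p = 0.0342, or 2.07 without it).

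Outside the annotation table, transcripts are known by identifier only. Among the calls, Sb09g015030.1 and Sb07g023790.1 had the highest fitted ratios. Sb09g015030.1 was at 0 to 0.130 RPKM in WW libraries and had a median of 12.4 and a highest value of 21.3 in DS libraries, with 1 of these at 0. Sb07g023790.1 was at 0 to 0.0822 in WW and had a median of 0.0434 and a highest value of 17.8 in DS libraries. Its DS reads came almost wholly from IS22330_DS a and IS22330_DS b, at 17.8 and 8.71, while IS20351_DS stayed at or below 0.0440, and it passed the RPKM minimum through IS22330_DS alone. The lowest fitted ratios were those of Sb04g023310.1, at 0.401 to 3.32 RPKM in WW and 0 in all 6 DS libraries, and of Sb02g025563.1, at 0.372 to 1.45 in WW and 0 to 0.194 in DS libraries. Sb09g015030.1 passed the RPKM minimum through the DS groups only, and Sb04g023310.1 and Sb02g025563.1 through IS22330_WW alone. All 4 thus had to differ between group means to pass, so that their calls carry little weight. All 4 were called without IS22330_DS c, and no fold is given against groups at or near 0.

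None of the 10 most abundant tested transcripts was called by edgeR with all libraries. Their log2 ratios ran from -0.17 to 0.66, and the smallest adjusted p among them was 0.137, that of Sb03g043420.1, with 1 at an unadjusted p under 0.05. This transcript was called without IS22330_DS c (log2 ratio 0.80), without IS22330_WW b (0.89) and in IS20351 alone (1.14), and not in DESeq2 or limma. The 4 transcripts without a solution for single libraries are abundant too and can be given as group means only. Sb10g021330.1 had 6417 and 4066 RPKM in IS20351_WW and IS20351_DS and 6886 and 3132 in IS22330_WW and IS22330_DS, a mean log2 ratio of -0.90. For the other 3 it was 0.82 (Sb01g013000.1), 0.56 (Sb03g020186.1) and 0.23 (Sb07g005660.1), with no test.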

How the data were processed

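RNA of 12 libraries was sequenced after poly(A) selection. Per the authors' methods, SOAPaligner placed cleaned reads on the sorghum sequence of Ensembl Plants, and unique matches were counted per transcript. The deposited tables hold, for each group, expected counts (the authors' mean of the unique reads over 3 libraries) and RPKM values (also averaged by the authors), in which a library without reads was entered as 0.001. Whole reads per library were solved from both means for 27985 of 27989 transcripts, and tables simulated from such reads were solved exactly for as many. The 4 others were left out of tests. Each library held 26398759 to 28680141 reads, and n was 3 per group.

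Transcripts were tested with edgeR 4.0.16 in R 4.3.3 (quasi-likelihood test, genotype as a block, TMM factors of 0.859 to 1.13, Benjamini-Hochberg adjustment over 19309 transcripts). The common biological coefficient of variation was 0.482. The SE is the log2 ratio divided by the square root of F. The script was tested on simulated data. Alternatives used other filters, scalings, prior counts and models, limma 3.58.1 with pseudocounts of 0.1 and 1, DESeq2 1.42.0, each genotype, and each library left out. Python 3.11.15 (pandas 2.3.3, numpy 2.4.6) made the tables.

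Names come from the study's annotation table, since 0 identifiers matched the reference table, and lists defined by reference descriptions could not be used. Named transcripts are the up to 12 largest called rises and falls with a name, up to 3 called members per direction of each pathway by p (or the 2 with the smallest p), the 10 most abundant, and those in the study's text. Others are marked as named after their values were seen. Members and lists were chosen with earlier results of these data known.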

Additional observations from a re-analysis of the deposited data

Results flagged for a closer look

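In 58 groups of 6 libraries (each called annotated transcript, each pathway sum and the first component, in WW and in DS plants), 8 held a library whose gap to the nearest other exceeded the share of the group's range set by Dixon's 95% critical value. By chance that value flags about 1 in 20 groups drawn from 1 normal distribution. The groups here mix both genotypes, mostly on the RPKM scale, so that rate need not hold and the 8 are not read as an excess. Many of the flags share IS22330_DS c.

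IS22330_DS c stood apart 5 times. It was at 10803 summed RPKM for the light reactions, with the next DS library at 2154, at 2845 for the Calvin cycle (next 992), and at 1704 for the antioxidant transcripts (next 640). It was also at 169 RPKM for geranylgeranyl reductase Sb04g028050.1 (next 44.2) and at -74.2 on the first component (next 35.6).

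IS22330_WW a stood apart from the WW libraries at 908 summed RPKM for carbon metabolism (next 573) and at 29.2 RPKM for the photosystem II calcium ion binding protein Sb06g022890.1 (next 9.17). IS22330_WW b did so at 3.60 RPKM for leucoanthocyanidin reductase Sb06g029520.1 (next 0.859). The reasons were not tested.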

How the results depend on the processing

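With all 12 libraries, 1615 transcripts were called (758 higher, 857 lower). Without a filter on low values there were 1066 (472 higher, 594 lower), with DESeq2 3940 (2062 and 1878), by size alone on the deposited means 609 (369 and 240), and in the 6 IS22330 libraries alone 0, where 1661 had an unadjusted p under 0.05 in edgeR. At the study's thresholds there were 0, and with a change of 1 or more log2 units also required, a condition added after the data were seen, 833 (326 and 507). Leaving out 1 library gave 0 to 5539 calls, 0 to 2534 higher and 0 to 3005 lower. The remaining settings (RPKM of at least 1 in 6 libraries, mean RPKM of at least 5, RLE or upper quartile factors, prior count 2, no genotype block, the mean of 2 contrasts, 1 transcript per gene, limma, IS20351 alone) gave 1159 to 1911 calls.

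Without IS22330_DS c, in fits added after the data were seen, IS20351 had 2910 calls (699 with that library) and IS22330 788 (0 with it), the difference between genotypes 0, and 1618 transcripts had all DS libraries above and 1222 all below the WW libraries. No paired analysis was possible because the deposited means carry no replicate number.

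The limits are the spread among 3 libraries per group, a library opposite to its label, and reads solved from means. Counts of calls follow the libraries used, and the cause was not tested. Depth was alike across libraries, but few calls were made at low levels. The share called was 3.82% under a mean of 1 RPKM and 3.58% between 1 and 5, beside 8.36% of all transcripts. The adjusted p of all calls lay between 0.0186 and 0.05.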
